A study of Mus musculus with 9 samples.

Results

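The genes described here were high in naïve B cells and already low in antigen-specific B cells that had been activated but were not plasma cells (PCs), and they were low in PCs as well. They were chosen from mean TPM (a transcript level corrected for length and library size) in a table of 29995 genes that leaves out immunoglobulin (Ig) genes. A gene was taken if its naïve mean was at least 10 TPM, if that mean plus 1 was at least 4 times the mean plus 1 of both other groups, and if its lowest naïve library lay above all 6 other libraries. Of 7317 genes with a naïve mean of at least 10 TPM, 72 (0.984%) met the fold and the order of libraries in activated B cells, 750 (10.3%) in PCs and 38 (0.519%) in both. Nav2, which takes up reads of Ig transcripts, was left out, and 37 genes remained. Both comparisons use the same naïve libraries. Since the levels in naïve B cells and in both other groups made the choice, the differences from naïve B cells are a description and carry no test. The comparison of PCs with activated B cells did not enter the choice as such and was tested. It is limited all the same, because a gene could be a member only if both groups lay at about 25% of its naïve level or below.

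The study sorted splenocytes of 12-week-old B6.Blimp1+/GFP mice, in which 1 allele of Prdm1 (the gene of the PC regulator Blimp1) carries a GFP reporter, 4 days after an intraperitoneal dose of 50 µg NP-LPS. NP-LPS is the hapten NP on bacterial lipopolysaccharide, an antigen that B cells answer without T cells. All 3 groups carry the reporter allele and come from immunised animals, so that the naïve B cells are bystanders of the response and not cells of unimmunised mice. Naïve B cells were B220+, IgD high and without NP binding. Activated NP-specific B cells, called activated B cells below, bound NP and were IgD-, GFP-, CD138- and B220+, and PCs were IgD-, GFP+ and CD138+ and bound NP. Every gate left out cells with CD4, CD8a, Ter-119 or F4/80. There were 3 libraries a group, described as 3 mice, and all were taken on 1 day, so that no order in time was measured between activated B cells and PCs. Words such as fell further, step and later groups refer below to the order in which the groups are listed, not to time.

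A naïve B cell rests in G0 and recirculates through follicles while it waits for antigen. It holds surface receptors that sense antibody and cytokines, ligands for helper T cells, and a set of transcription regulators that keep it small and out of the cell cycle. Activated B cells grow and divide, and those that become PCs give up much of the B cell programme for antibody secretion.

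Libraries held 20189900 to 38602300 estimated reads outside Ig genes, fewest in PCs. The labels fitted the markers. Fcer2a, Cr2, Ccr7 and Klf2, which mark naïve B cells, summed to 1470 to 1516 TPM in naïve B cells, 496 to 541 in activated B cells and 16.5 to 20.6 in PCs, though Klf2 alone was higher in activated than in naïve B cells. A list of 10 cell cycle genes summed to 70.8 to 87.3, 1064 to 1457 and 828 to 1048 TPM, and 6 PC markers to 143 to 167, 192 to 206 and 6103 to 7422 TPM. A list of 8 liver genes, of which none was at 1 TPM in naïve B cells, summed to 4895 TPM in PC replicate 3 against 22.3 TPM in the lowest PC library. S100a8 and S100a9, neutrophil genes, stood at 24.7 and 23.9 TPM in activated B cell replicate 2 and at no more than 0.228 TPM in the other libraries of that group, and at 18.7 and 11.4 TPM in PC replicate 3 against no more than 2.86 TPM in the other PC libraries. No gene of the 13 marker lists is among the 37. Their part in the results was not tested, and values without a library are given where they change a call. In bulk RNA, fewer cells that hold a transcript and less of it in each cell cannot be told apart.

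**Figure D1:**
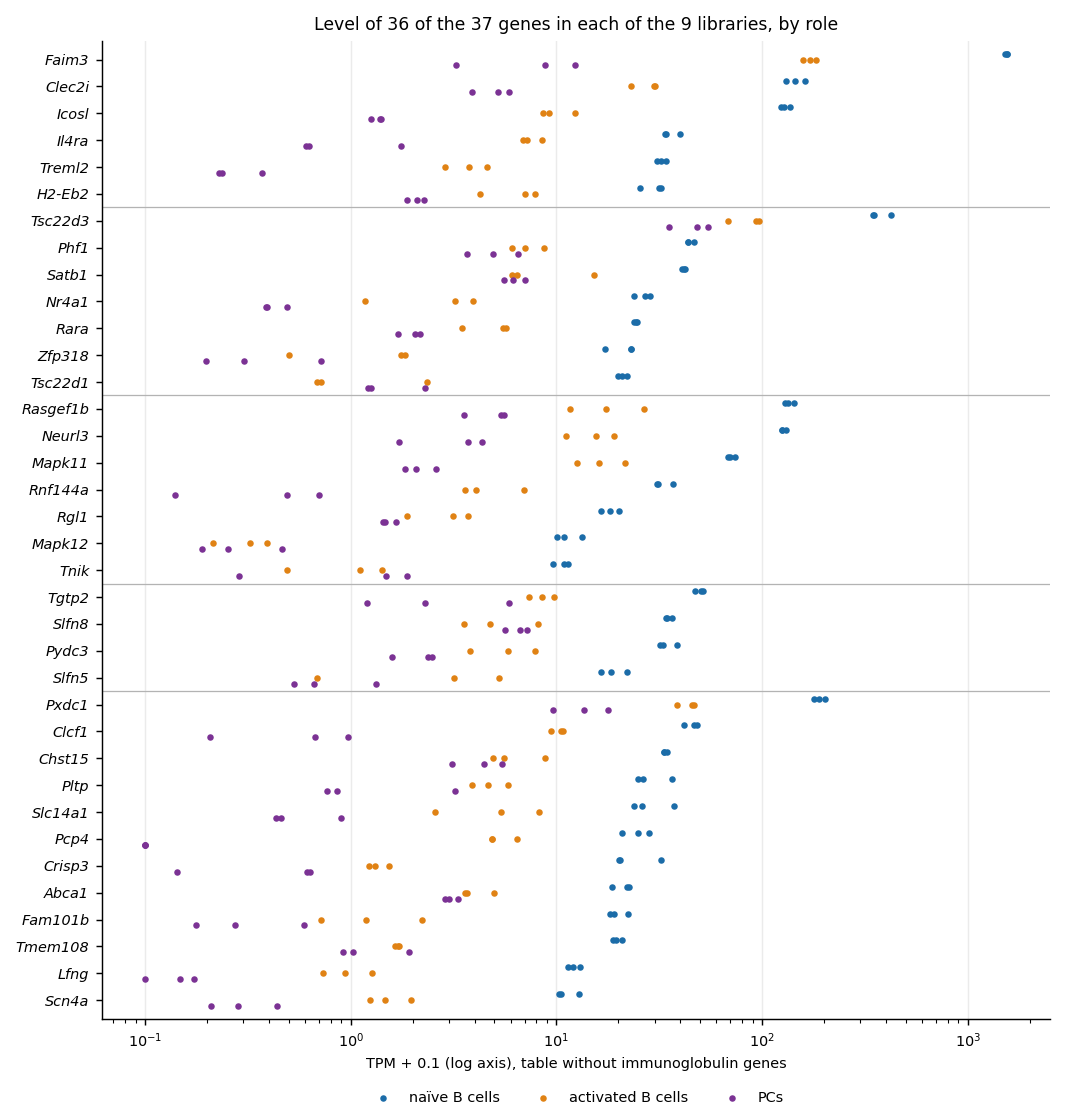
Level of 36 of the 37 genes in each of the 9 libraries (horizontal axis: TPM + 0.1, log axis; 3 points a group), ordered by role. The naïve points lie to the right of all others for every gene, which the choice fixed, while the points of activated B cells and PCs overlap for 10 genes.

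Together the 37 genes held 0.378% ± 0.00823 of all TPM in naïve B cells, 0.0555% ± 0.000903 in activated B cells and 0.0149% ± 0.00211 in PCs (SD, n = 3 each). In the table that keeps Ig genes the share in PCs was 0.00606%. Faim3 alone gave 43.2% of the naïve sum, and without it the shares were 0.214%, 0.0376% and 0.0141%. The naïve means ran from 10.6 to 1543 TPM with a median of 32.3 TPM, and 7 genes were at 100 TPM or more. The number of genes depends on the scale: with libraries scaled by the median ratio over genes, 22 of the 37 met the rule and no other gene did. Naïve replicates varied as they did for other genes. The median coefficient of variation was 8.51% for the 37 genes and 8.04% for all 7317. In activated B cells most of the genes were reduced rather than absent, though Mapk12, Lfng and Tnik averaged under 1 TPM. There the genes kept 1.86 to 23.8% of their naïve level with a median of 15.6%, against a median of 95.2% over the 7317 genes, and 9 of 37 kept under 10%. In PCs they kept 0 to 18.4% with a median of 3.48%, against 68.7% over the 7317 genes, and 29 of 37 kept under 10%. The distance to the higher of the other groups was set by activated B cells in 34 genes and by PCs in 3 (Slfn8, Tsc22d1 and Tnik). None of the 37 was under 3 estimated reads in all 6 other libraries.

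**Figure D2:**
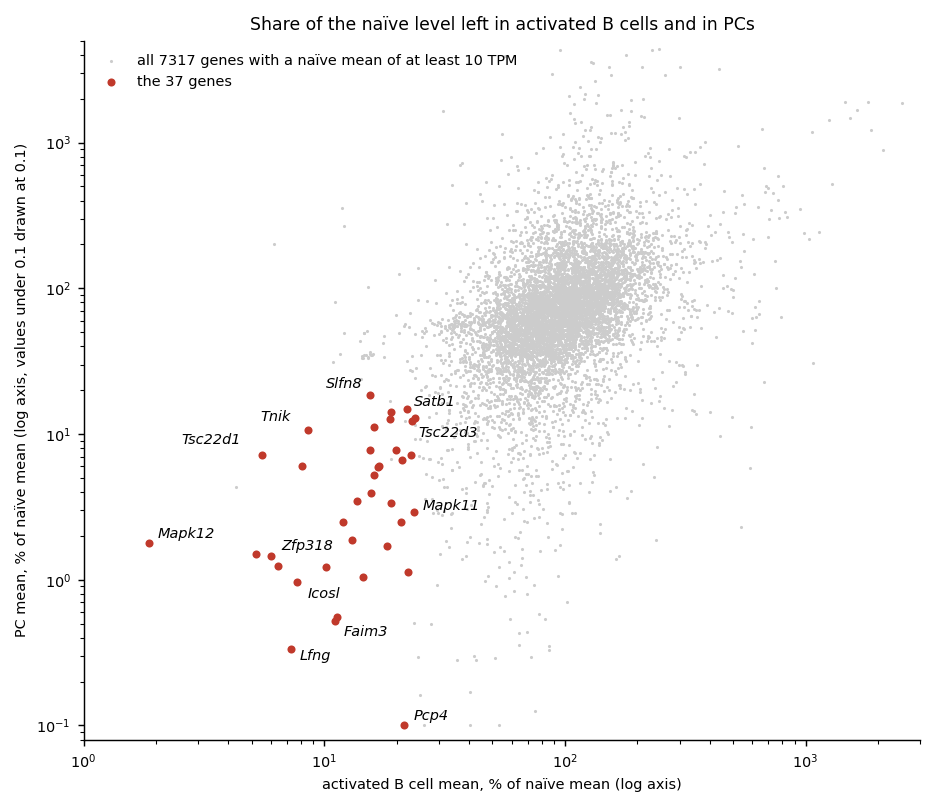
Mean level in activated B cells (horizontal axis) and in PCs (vertical axis), each as % of the naïve mean, on log axes, for the 37 genes (large points) and all 7317 genes with a naïve mean of at least 10 TPM (small points). The 37 genes lie at 1.86 to 23.8% on the horizontal axis, and most of them lie lower still on the vertical axis.

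PCs were then compared with activated B cells in a limma fit over 12892 genes. Of the 37 genes, 22 were lower in PCs (adjusted p under 0.05 and over 2-fold), where 22.3% of all genes tested were lower and 9.93% higher, and none of the 37 was higher. Lfng and Fam101b, among the 22, and Mapk12 and Zfp318 met the filter of the fit only through their naïve libraries. That filter was 1 TPM or more in at least 3 libraries. Nothing is read from the calls of Lfng, Fam101b, Mapk12 and Zfp318 for this reason, in this fit or in any alternative. Nothing is read from the lack of higher calls, because a gene that was low in activated B cells and rose in PCs above about 25% of its naïve level could not be a member, and the same limit bears on the lower calls. At an unadjusted p under 0.05 there were 26, of which 0 were higher. The 37 genes had a median log2 difference of -1.33 and all genes tested one of -0.30. With the scaling by the median ratio, the median over all genes was -0.06, 16.7% of all genes were lower and 13.3% higher, and 21 of the 37 genes were lower. In the table that keeps Ig genes, the median over all genes was -1.27, 59.7% of all genes tested were lower and 30 of the 37 were. Genes that passed there but not in the table without Ig genes included Tsc22d3, Phf1, Satb1, Chst15, Abca1, Rgl1, Crisp3 and Slfn5. With log2(TPM + 1) values 19 of the 37 were lower, and 20.6% of all genes. PC and activated B cell libraries did not overlap for 27 genes, and PCs were the lower group in all of these (40.9% of all genes tested had every PC library below), while the libraries of 10 genes overlapped. Among the 22 were Faim3, Pcp4, Clcf1, Mapk11, Rnf144a, Il4ra, Treml2, Icosl, Slc14a1 and Clec2i, with the 10 largest fitted falls, from -4.50 to -2.38 on the log2 scale. The fit adds 0.5 TPM to each value, which shrinks the differences of genes at low levels. On the log2 values of the authors, which add 0.5 reads and were fitted without weights, Treml2 was at -4.30 in place of -2.60 and Lfng at -4.37 in place of -1.33. There 9 of the 10 largest falls were shared, with Lfng in the place of Clec2i. Offset and weights changed together, so that their parts were not told apart. Of the 25 genes at 3 TPM or more in activated B cells 18 were called, and of the 12 genes under 3 TPM 4 were, Lfng and Fam101b among them. Of the 15 genes that were not called, the interval of the difference lay within 2-fold either way for Abca1 and Slfn8. It did for Mapk12 as well, but that gene averaged under the offset of 0.5 TPM in both groups, so that its fitted difference is held near 0 and bounds nothing. For the other 12 a 2-fold change was within the interval. Of the 15, 6 changed sign under at least 1 of 19 alternatives (Satb1, Slfn8, Abca1, Tsc22d1, Mapk12 and Tnik).

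**Figure D3:**
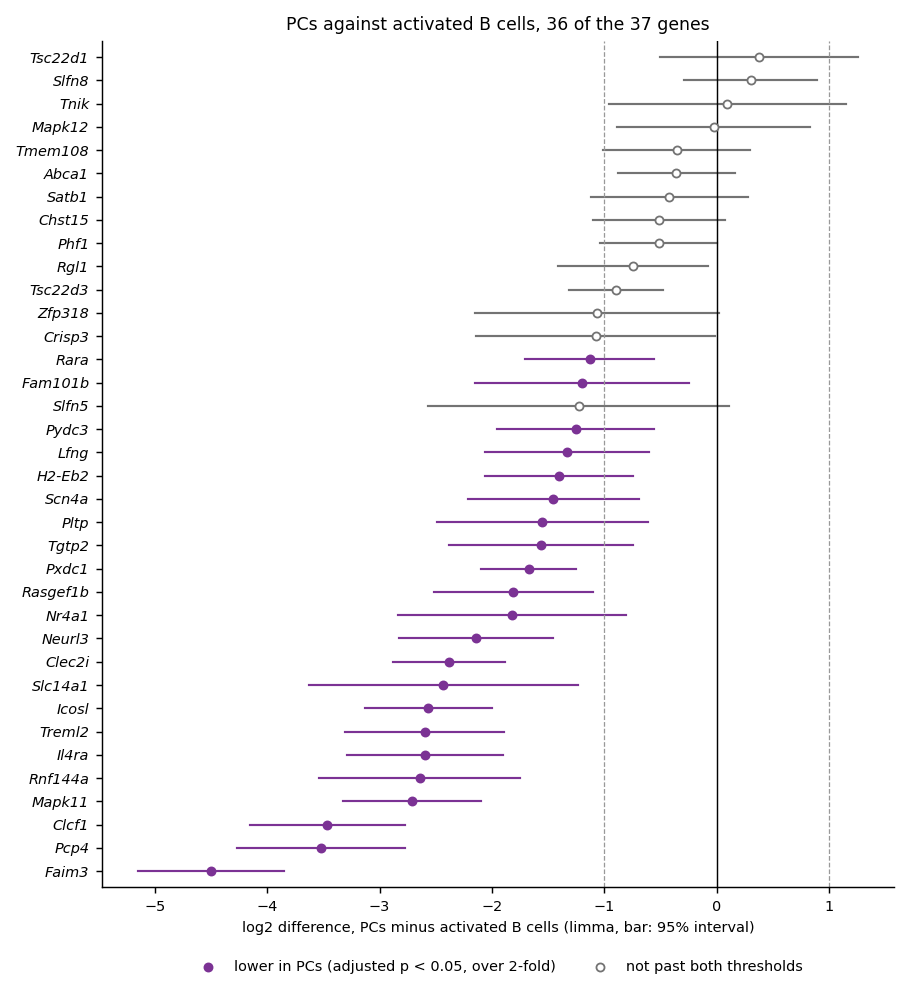
log2 difference of PCs minus activated B cells for 36 of the 37 genes (limma, bars are 95% intervals, dashed lines mark 2-fold). Filled points are the 22 genes lower in PCs and open points 14 that did not pass both thresholds.

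Among surface receptors and ligands, 6 of 7 fell further from activated B cells to PCs, where 22.3% of all genes tested were lower. Roles were assigned after the values were seen, and differences between roles were not tested. Faim3 (Fcmr in newer annotation), the Fc receptor for IgM, was by far the most abundant of the 37 genes. It was read at 1524, 1558 and 1548 TPM in naïve B cells, 159, 182 and 170.2 TPM in activated B cells and 8.7, 3.14 and 12.2 TPM in PCs. The groups formed 3 separate steps with 11% and 0.518% of the naïve level left, and the second step was a log2 difference of -4.50 ± 0.29 (SE). Its relatives were low: Fcamr, a receptor for IgA and IgM, averaged 3.58 ± 0.612, 1.06 ± 0.317 and 0.0327 ± 0.0323 TPM (± SD, n = 3) in the same order.

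Icosl, the ligand through which B cells engage ICOS on helper T cells, stood at 127, 136 and 123.2 TPM in naïve libraries, 12.2, 9.09 and 8.55 TPM in activated B cells and 1.28, 1.15 and 1.3 TPM in PCs. It had kept 7.72% of its naïve level in activated B cells and was lower again in PCs (log2 difference -2.56 ± 0.26 (SE), limma adjusted p = 9.93e-06). Other ligands of the same B7 family differed. Pdcd1lg2 (PD-L2) had the order of Icosl with a smaller drop in activated B cells, at 10.8 ± 0.817, 6.53 ± 1.09 and 0.309 ± 0.242 TPM, and was lower again in PCs (log2 difference -3.15 ± 0.32 (SE), limma adjusted p = 1.08e-05). Cd86 was at 39.6, 46.2 and 42 TPM in naïve B cells, 113, 96.4 and 97.6 in activated B cells and 5.18, 1.96 and 3.19 in PCs, so that its highest group was the one in which Icosl was already low. Cd80 averaged 0.891 ± 0.199, 8.31 ± 1.21 and 2.64 ± 0.629 TPM, also highest in activated B cells, and Cd274 (PD-L1) 23.1 ± 4.79, 21.2 ± 3.22 and 11.9 ± 3.23 TPM.

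Il4ra, the chain of the interleukin-4 receptor that binds the cytokine, was at 34.2, 33.8 and 39.6 TPM in naïve B cells and 8.46, 7.1 and 6.79 TPM in activated B cells, with 0.507, 0.525 and 1.66 TPM in PCs. The partners that carry its signal stayed closer to their naïve level in activated B cells. Il2rg, the shared gamma chain, averaged 1005 ± 43.2 and 889.7 ± 91.6 TPM there, Jak1 301 ± 10.8 and 142 ± 6.61, Jak3 45.8 ± 1.57 and 33.2 ± 3.11, and Stat6 152 ± 13.8 and 77.3 ± 11.6. All of these genes were lower in PCs than in activated B cells, with log2 differences of -2.60 for Il4ra, -1.68 for Il2rg, -1.87 for Jak1, -2.96 for Jak3 and -2.04 for Stat6. Il13ra1, which pairs with Il4ra in the type II receptor, went the other way. It was at no more than 0.244 TPM in every naïve and activated B cell library and at 13.3, 13.4 and 7.5 TPM in PCs (log2 difference 4.48 ± 0.39 (SE), limma adjusted p = 3.45e-06).

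Clec2i (Clr-g), a C-type lectin of the family recognised by NK cell receptors, was at 131, 144 and 162, then 29.9, 29.7 and 22.9, then 3.78, 5.79 and 5.1 TPM over the 3 groups. Clec2d, of the same family, had another order, with means of 5.21 ± 1.36, 1.27 ± 0.365 and 13 ± 2.03 TPM and a rise in PCs over activated B cells (log2 difference 2.94 ± 0.29 (SE), limma adjusted p = 9.65e-06).

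Treml2, a receptor of the TREM family, went from 32.3 ± 1.77 TPM in naïve B cells to 3.65 ± 0.865 in activated B cells and 0.178 ± 0.0793 in PCs. H2-Eb2, a little used MHC class II beta chain gene, went from 29.7 ± 3.74 to 6.26 ± 1.87 and 1.98 ± 0.188 TPM. The classical chain H2-Eb1 was far more abundant and kept more of its level on the way to activated B cells, with 4068 ± 249, 2177 ± 281 and 239 ± 7.76 TPM. H2-Eb2 is a near relative of H2-Eb1, and reads shared by both could be split between them by pseudoalignment.

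Regulators of transcription and chromatin made up 7 of the 37 genes, of which 2 (Nr4a1 and Rara) fell further in PCs, a share of 28.6% that is close to the 22.3% of all genes tested. Nr4a1 (Nur77), an orphan nuclear receptor that antigen receptor signals induce, was at 28.5, 23.7 and 27 TPM in naïve B cells, 3.85, 3.11 and 1.07 TPM in activated B cells and 0.289, 0.39 and 0.293 TPM in PCs. Naïve libraries stood above all others by a wide gap, and PCs lay below activated B cells without overlap (log2 difference -1.82 ± 0.46 (SE), limma adjusted p = 0.00615). Nr4a2 and Nr4a3 were at no more than 0.879 TPM in all 9 libraries. Rara, the retinoic acid receptor alpha, was very even among naïve libraries at 24.2, 23.7 and 24.7 TPM and stood at 5.38, 5.61 and 3.39 TPM in activated B cells and at 2.08, 1.95 and 1.6 TPM in PCs. Its partner Rxrb averaged 46.5 ± 5.49 TPM in naïve and 41.4 ± 6.19 TPM in activated B cells, which is 89.1% left against 19.8% for Rara. The log2 difference of Rara in PCs was -1.13 and passed in 16 of 19 alternatives.

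Satb1, a chromatin organiser best known from T cells, was at 40.7, 42.2 and 41.5 TPM in naïve B cells, among the 4 most even genes of the set with Faim3, Chst15 and Rara. In activated B cells it was at 15.2, 5.97 and 6.31 TPM and in PCs at 6.9, 6.02 and 5.46 TPM. Among activated B cells, replicate 1 lay apart from the other libraries of its group, and the other activated B cell libraries were within the range of PCs. No further change was detected, with an interval of the log2 difference from -1.12 to 0.28. In the table that keeps Ig genes the difference was -1.39 and passed (limma adjusted p = 0.00507), where the median over all genes was -1.27. 

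Zfp318, a zinc finger protein that naïve B cells need to make IgD transcripts, was at 17.1, 23.1 and 23 TPM in naïve libraries, 1.73, 1.65 and 0.402 TPM in activated B cells and 0.0987, 0.204 and 0.62 TPM in PCs. In the table that keeps Ig genes, Ighd itself averaged 2843 ± 54.3 TPM in naïve B cells, 40.3 ± 2.39 in activated B cells and 0.704 ± 0.486 in PCs (SD, n = 3). Surface IgD was itself part of the sort. Zfp318 in PCs and activated B cells overlapped, with a fitted log2 difference of -1.06 ± 0.49 (SE), and of -1.49 without activated B cell replicate 3. Zfp318 met the filter of the fit only through its naïve libraries, so that no call is read from either value.

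The TSC22 domain family had 2 members in the set. Tsc22d3 (GILZ), a glucocorticoid-induced regulator of resting lymphocytes, was the second most abundant gene with 350.4, 345 and 422 TPM in naïve B cells, 96.2, 68.3 and 93.1 in activated B cells and 35.3, 48.1 and 54.7 in PCs. Of the 37 genes it kept the highest level in PCs. PCs were below activated B cells in every library, but by less than 2-fold (log2 difference -0.90 ± 0.19 (SE), limma adjusted p = 0.00204). It passed at -1.05 without activated B cell replicate 2 and at -1.03 without PC replicate 3. Tsc22d1 was at 21.9, 19.9 and 20.7 TPM in naïve B cells, 0.615, 2.25 and 0.582 in activated B cells and 1.12, 1.15 and 2.2 in PCs, and both later groups overlapped. Tsc22d4, of the same family, averaged 152 ± 8.88, 85.8 ± 5.51 and 62.3 ± 18 TPM, with 56.6% of the naïve level left in activated B cells.

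Phf1, a Polycomb-like protein that guides the repressive complex PRC2 to chromatin, was at 43.4, 46.4 and 43.4 TPM in naïve B cells, 8.57, 6.97 and 5.98 in activated B cells and 6.39, 4.8 and 3.59 in PCs. The parts of PRC2 did not move as one. Ezh1, the methyltransferase of resting cells, averaged 51 ± 3.97, 24.6 ± 4.55 and 17.3 ± 1.48 TPM, highest in naïve B cells like Phf1. Ezh2, the methyltransferase of dividing cells, averaged 20.7 ± 4.76, 71 ± 5.84 and 30.9 ± 2.74 TPM, highest in activated B cells. Other proteins of the Phf1 type were also highest in activated B cells, Mtf2 with 87 ± 19.6 TPM against 65.4 ± 1.23 in naïve B cells and Phf19 with 18.6 ± 3.84 against 2.55 ± 0.552 TPM. The cell cycle list given above was higher in activated B cells as well, and its part in these levels was not tested.

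**Figure D4:**
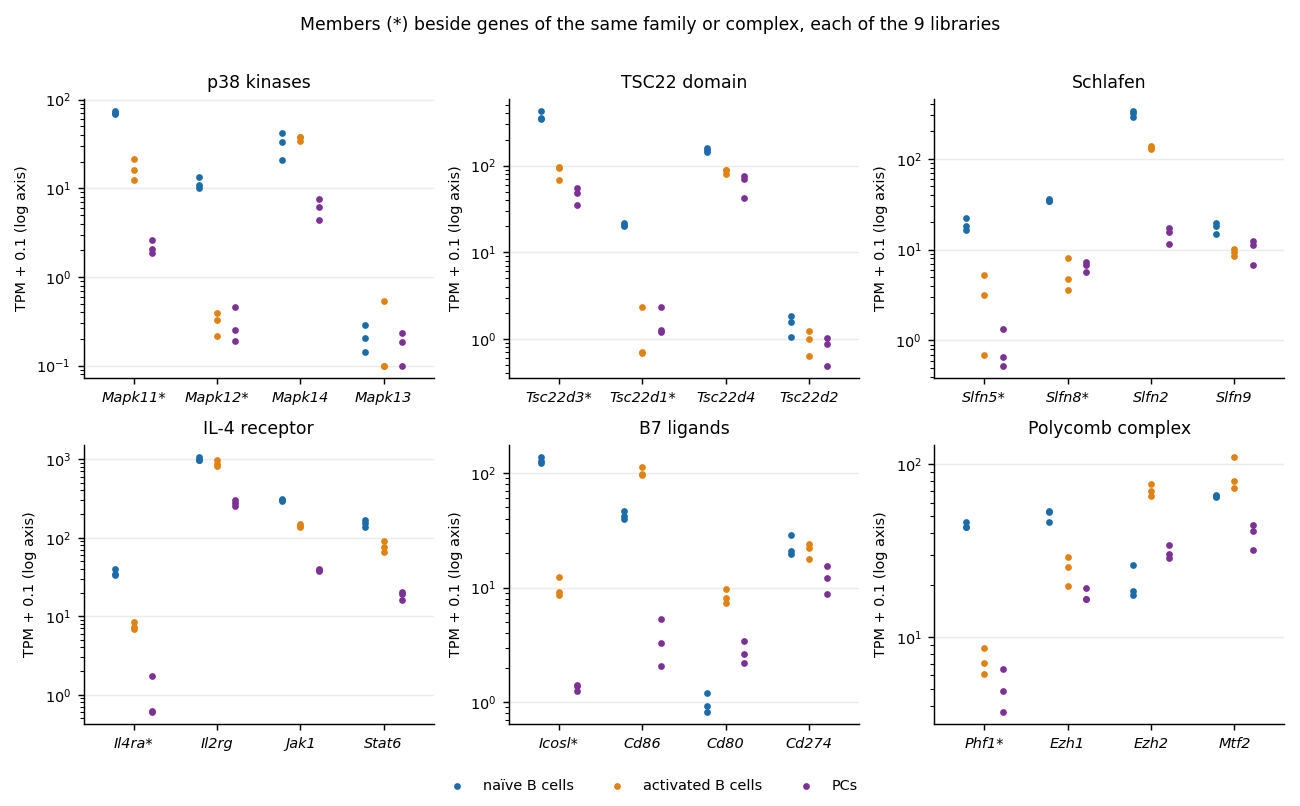
Level in each of the 9 libraries (vertical axis: TPM + 0.1, log axis) of members of the set (marked *) and of genes of the same family or complex. Cd86, Cd80, Ezh2 and Mtf2 had activated B cell means above their naïve means, while Mapk11, Mapk12, Icosl and Phf1 were at 1.86 to 23.6% of theirs.

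The p38 MAP kinases, which carry stress and cytokine signals, differed within the family. Mapk11 (p38 beta) was at 70.01, 68.3 and 73.5 TPM in naïve B cells, 21.6, 15.9 and 12.5 in activated B cells and 2.49, 1.99 and 1.74 in PCs. Mapk12 (p38 gamma) was at 13.2, 9.94 and 10.8 TPM in naïve B cells, 0.293, 0.224 and 0.114 in activated B cells and 0.362, 0.0881 and 0.153 in PCs, which left 1.86% of the naïve level in activated B cells, the lowest share of the 37 genes and of all 7317. Mapk14 (p38 alpha), the widely expressed form, was at 33.2, 20.7 and 42.1 TPM in naïve B cells and 38.1, 38.2 and 33.9 TPM in activated B cells, which overlap, and at 7.49, 6.11 and 4.24 TPM in PCs. Per length, Mapk14 was the most abundant p38 transcript in activated B cells, and Mapk11 was in naïve B cells. In PCs both Mapk11 (-2.71 on the log2 scale) and Mapk14 (-2.56) were lower than in activated B cells. Mapk12 was too low in both groups for a difference between them to be measured, with 6 to 16 estimated reads in activated B cells and 2.9 to 11.8 in PCs. Mapk13 was at no more than 0.430 TPM in all libraries.

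Mapk11 and Mapk12 are also neighbours. In the RefSeq annotation of GRCm38.p6 they lie at chr15:89142482-89149606 and chr15:89130584-89141577, 904 bases apart with no gene between. The genes that flank the pair were not members. Hdac10 averaged 96.6, 32.6 and 25.1 TPM in naïve B cells, activated B cells and PCs, a drop in the same order but smaller than 4-fold, and Plxnb2 averaged 3.70, 27.1 and 5.30 TPM, highest in activated B cells. Slfn5 and Slfn8 were the only other members with at most 1 gene between them. They lie 37274 bases apart on chromosome 11 with Slfn9 between, which averaged 17.5 ± 2.61 TPM in naïve B cells and 9.28 ± 0.88 TPM in activated B cells and thus fell short of the rule. The 37 genes spread over 19 chromosomes, with 6 each on chromosomes 11 and 17, and all 37 are protein coding.

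Exchange factors for small GTPases and ubiquitin ligases followed. Rasgef1b, an exchange factor of the Ras family, was at 143, 134 and 129.5 TPM in naïve B cells, 11.6, 17.3 and 26.6 in activated B cells and 3.45, 5.44 and 5.27 in PCs, and fell further in PCs (log2 difference -1.81 ± 0.32 (SE)). Rgl1, an effector that links Ras to Ral, averaged 18.2 ± 1.8, 2.81 ± 0.941 and 1.42 ± 0.12 TPM, and its difference between PCs and activated B cells did not pass (-0.74 ± 0.30 (SE), limma adjusted p = 0.0587). Its relative Rgl2 averaged 64.1 ± 2.28, 33.6 ± 3.52 and 11.3 ± 2.89 TPM. The ubiquitin ligase Neurl3 was at 125, 125 and 131 TPM in naïve B cells, 19, 15.4 and 11.1 in activated B cells and 3.63, 1.61 and 4.27 in PCs. Rnf144a, another ubiquitin ligase, averaged 32.8 ± 3.34, 4.76 ± 1.81 and 0.345 ± 0.284 TPM. Both ligases were lower in PCs than in activated B cells, with log2 differences of -2.14 and -2.64. Tnik, a kinase of the germinal centre kinase group, averaged 10.6 ± 0.898, 0.907 ± 0.475 and 1.12 ± 0.83 TPM with overlapping later groups, while the related Map4k4 averaged 15.5 ± 0.28 and 15.3 ± 4.44 TPM in naïve and activated B cells.

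Genes of interferon-inducible families numbered 4. Tgtp2, a GTPase, was at 51.7, 50.5 and 47.2 TPM in naïve B cells, 8.37, 9.68 and 7.26 in activated B cells and 5.75, 1.1 and 2.2 in PCs. Its nearly identical copy Tgtp1 averaged 9.76, 2.15 and 0.709 TPM, and reads of both could be split between them. Pydc3 (Ifi208), a pyrin domain gene of the Ifi200 family, averaged 34.5 ± 3.62, 5.74 ± 2.05 and 2.05 ± 0.49 TPM, and is also one of several similar genes. Both were lower in PCs (log2 differences -1.56 and -1.25). Slfn8 was at 33.9, 34.3 and 36.3 TPM in naïve B cells, 3.45, 8.02 and 4.67 in activated B cells and 5.52, 6.59 and 7.13 in PCs, with no difference detected between the later groups (interval from -0.29 to 0.89). Slfn5 was at 16.4, 22 and 18.3 TPM in naïve libraries, 0.585, 3.07 and 5.18 TPM in activated ones and 0.564, 0.428 and 1.23 TPM in PCs. The activated B cell libraries of Slfn5 differed widely, and without replicate 1 of them the log2 difference was -1.91 (limma adjusted p = 0.0025) in place of -1.23 (0.112). Slfn2, the Schlafen gene that keeps lymphocytes quiescent, was more abundant, with 314 ± 22.9, 133 ± 6.27 and 14.7 ± 3 TPM, and kept more of its naïve level than Slfn5 and Slfn8 in activated B cells but less than Slfn8 in PCs (4.69% against 18.4%). Other interferon-stimulated genes differed in order. Ifit3 had that of the members with 13, 8.43 and 0.276 TPM but a smaller drop in activated B cells, in contrast to Isg15 with 14, 23.7 and 54.7 TPM and Irf7 with 32.3, 15.0 and 26.9 TPM.

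Lipid transport was represented by Abca1 and Pltp, both targets of liver X receptors. Abca1, which exports cholesterol, was at 18.4, 22 and 22.4 TPM in naïve B cells, 3.5, 4.88 and 3.58 in activated B cells and 2.79, 2.9 and 3.21 in PCs, with no further change detected (interval from -0.88 to 0.16), while in the table that keeps Ig genes the log2 difference was -1.15 and passed (limma adjusted p = 0.00101). Pltp, the phospholipid transfer protein, was at 36.2, 26.3 and 24.9 TPM in naïve libraries, 5.74, 3.77 and 4.56 TPM in activated ones and 0.762, 0.668 and 3.11 TPM in PCs. Its highest PC value was that of replicate 3, the library with liver transcripts, in which Apoe was at 1135 TPM against 6.01 and 5.69 TPM in the other PC libraries. Of 12 macrophage and monocyte genes 11 were also highest there among PC libraries, such as C1qb at 15.9 TPM against 1.18 and 0.747 TPM. These 11 summed to 35.5, 46.7 and 133 TPM in the PC libraries, and the exception was Ctss, which was high in every library. Their part in the level of Pltp was not tested. Without that library the log2 difference of Pltp was -2.07 in place of -1.55. Abcg1, another cholesterol exporter, was not low in activated B cells (43.7 ± 1.02 and 35.1 ± 9.98 TPM, 80.3% left). Mylip, another target of these receptors, came close to the rule with 68.2 ± 6.77, 18.3 ± 0.565 and 6.1 ± 1.16 TPM. Apoe kept 50.4% of its naïve level in activated B cells. The receptor gene Nr1h2 kept 68.4%, and Nr1h3 averaged only 0.846 TPM in naïve B cells. Whether targets of these receptors changed together was not tested.

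Other members with known products were mixed in function. Clcf1, a cytokine of the interleukin-6 family that acts on B cells, was at 47.9, 41.5 and 46.5 TPM in naïve B cells, 9.3, 10.7 and 10.4 in activated B cells and 0.871, 0.568 and 0.106 in PCs. Pcp4, a small calmodulin-binding protein, was at 24.7, 28.2 and 20.8 TPM in naïve B cells, 4.75, 4.77 and 6.34 TPM in activated B cells and 0 TPM in all PC libraries. Against a floor of 3 estimated reads in the shallowest PC library it was at least 63.1-fold lower there than in naïve B cells and at least 13.6-fold lower than in activated B cells. Lfng, the fringe enzyme that adds sugars to Notch receptors, was at 11.3, 13 and 12 TPM in naïve B cells, 0.634, 1.17 and 0.833 TPM in activated B cells and 0.0481, 0 and 0.0733 TPM in PCs, with 0 to 2.96 estimated reads in the PC libraries. Fitted differences of Pcp4 and Lfng in PCs depend on the offset of 0.5 TPM and are no bounds. The sister enzyme Mfng averaged 56.6 ± 3.82 and 38.2 ± 5.7 TPM in naïve and activated B cells and Notch2 52.3 ± 4.58 and 35.4 ± 2.7 TPM, while Hes1, a Notch target, averaged 7.62 ± 1.32 and 34.9 ± 16.9 TPM and so was higher in activated B cells. Dtx1, another gene of the Notch2 pathway, was not higher there, with 84.3 ± 13.4 and 65.0 ± 8.55 TPM.

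Pxdc1, a PX domain gene of little known function, was the third most abundant member with 202, 179 and 189.8 TPM in naïve B cells, 45.4, 38.6 and 46.6 in activated B cells and 9.57, 13.6 and 17.7 in PCs. Slc14a1, a urea transporter, averaged 29 ± 7.28, 5.28 ± 2.82 and 0.497 ± 0.262 TPM. Scn4a, a sodium channel gene of muscle, averaged 11.1 ± 1.48, 1.45 ± 0.367 and 0.21 ± 0.118 TPM. These 3 genes were lower in PCs than in activated B cells, with log2 differences of -1.67, -2.43 and -1.45. Fam101b (Rflnb), an actin regulator, averaged 19.8 ± 2.19, 1.28 ± 0.774 and 0.246 ± 0.216 TPM, with a fitted log2 difference of -1.20 ± 0.43 (SE) in PCs. Nothing is read from its call, because Fam101b met the filter of the fit only through its naïve libraries. That call held in 11 of 18 alternatives only. Chst15, a sulfotransferase of chondroitin chains, averaged 33.6 ± 0.555, 6.33 ± 2.06 and 4.24 ± 1.17 TPM, Tmem108 19.7 ± 0.99, 1.59 ± 0.0382 and 1.19 ± 0.548 TPM, and neither passed. Crisp3, a secreted cysteine-rich protein, was uneven in naïve B cells at 20.04, 20.2 and 32.3 TPM, the highest coefficient of variation (29.1%) of the set, and low in both other groups (1.26 ± 0.159 and 0.365 ± 0.279 TPM). PCs were lower than activated B cells by a log2 difference of -1.08 ± 0.48 (SE) that did not pass (limma adjusted p = 0.081), and passed without naïve replicate 3 (0.0303).

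Genes at the edge of the rule were as follows. Just inside, with (naïve mean + 1) over (mean + 1 of the higher other group) between 4.06 and 4.18, were among others Mapk11, Pcp4, Clcf1 and Satb1. Just outside were Fcer2a (CD23) at 3.98, Il27ra at 3.96, Sorl1 at 3.95, Tagap at 3.94 and Ephx1 at 3.92. Fcer2a, the low-affinity IgE receptor and a marker of follicular B cells, averaged 825 TPM in naïve B cells, 206 in activated B cells and 1.34 in PCs. Farthest inside were 7 genes with a ratio of 8 or more, led by Icosl at 11.9, Crisp3 at 11.2 and Mapk12 at 10.1, followed by Zfp318, Fam101b, Faim3 and Tsc22d1. A further 712 genes were as low in PCs but not in activated B cells, against 34 that were as low in activated B cells but not in PCs. Of these 34, 3 take up reads of Ig transcripts like Nav2, and 17 more are predicted genes with Gm symbols.

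Functional lists were counted by the same limits, which 0.984% of all 7317 genes met in activated B cells and 9.73% in PCs only, so that a count of 0 or 1 in activated B cells is near the background for lists of this size. Of 27 B cell receptor signalling genes with a naïve mean of at least 10 TPM, none was as low in activated B cells and 18 were in PCs only, and of 16 homing genes the numbers were 0 and 11. Among 17 antigen presentation genes 1 (H2-Eb2) was low in both and 12 in PCs only, among 13 cytokine and TNF family receptors 1 (Il4ra) and 8, and among 15 follicular, marginal zone and transitional B cell genes 1 (Icosl) and 7. In this last list Cd36 averaged 16.2 TPM in naïve and 183 TPM in activated B cells, and Cd9 18.9 and 49.2 TPM. Both were thus higher in activated B cells, whereas Fcer2a was lower (825 and 206 TPM). Whether the groups hold different shares of B cell subsets was not tested. Of 18 immediate early genes, Nr4a1 was low in both groups and 4 others in PCs only. Of 19 resting-state regulators 3 (Tsc22d1, Tsc22d3 and Satb1) were low in both and 8 in PCs only. Txnip met the limits in activated B cells (54.2 TPM against 235 in naïve B cells). In PCs (79.96 TPM) Txnip was also below every naïve library, but by less than the 4-fold limit. At a 6-fold limit or with the scaling by the median ratio, Tsc22d3 and Satb1 no longer met the rule and 1 of the 19 was left, as many as among immediate early genes (Nr4a1) and among follicular, marginal zone and transitional genes (Icosl). H2-Eb2 and Il4ra no longer met it either, which left 0 antigen presentation genes and 0 cytokine and TNF family receptors. Without activated B cell replicate 2, Tsc22d3 and Satb1 also dropped out, which left Tsc22d1 of the resting-state list. Without replicate 3 of that group, Satb1 dropped out of the resting-state list. Klf2, a regulator of the same list that keeps T and B cells quiescent, was at 41.4, 38 and 44.4 TPM in naïve B cells, 78.4, 58 and 122 TPM in activated B cells and 5.2, 5.37 and 5.5 TPM in PCs.

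**Figure D5:**
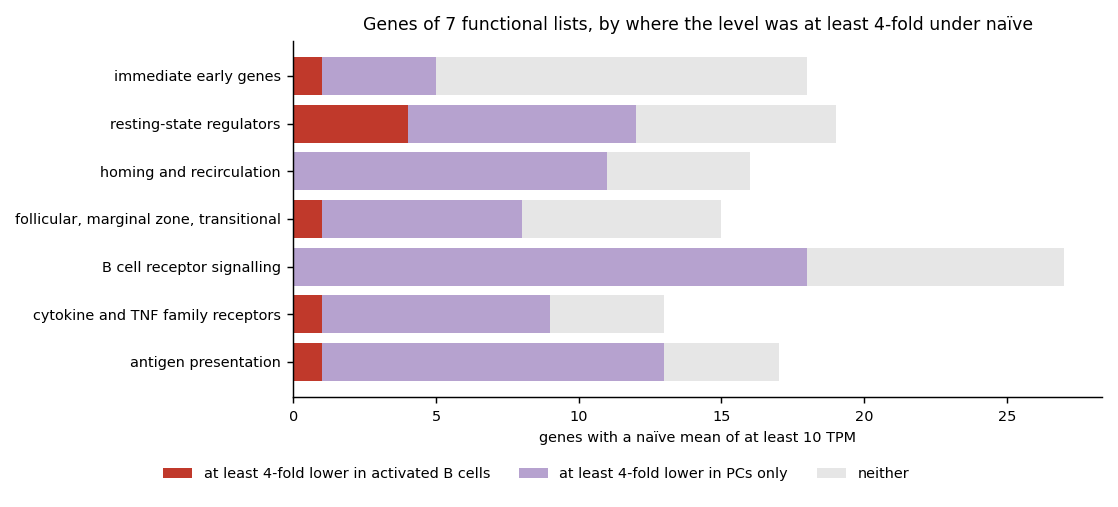
Genes of 7 functional lists with a naïve mean of at least 10 TPM (horizontal axis: number of genes), split by whether they were at least 4-fold under the naïve level in activated B cells, in PCs only, or in neither. The resting-state list has 4 genes in the first class and 4 of the other lists have 1 each.

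In the test of PCs against activated B cells, the same lists were counted without the 37 genes, to be read against 22.3% lower and 9.93% higher among all genes tested. Of 29 tested B cell receptor signalling genes 23 were lower and 0 higher, of 17 antigen presentation genes outside the set 13 were lower and 1 higher, of 17 homing genes 11 were lower and 3 higher, and of 19 follicular, marginal zone and transitional genes 12 were lower and 2 higher. Cytokine and TNF family receptors outside the set had 10 of 14 lower and 1 higher, and resting-state regulators 11 of 20 lower and 1 higher. Immediate early genes had 6 of 23 lower, close to the share of all genes, and 10 higher, Fos among the latter at 33.1, 39.9 and 657 TPM and Jun at 34.3, 12.5 and 241 TPM over naïve B cells, activated B cells and PCs. Nr4a1, the immediate early gene of the set, was thus at its lowest in the group in which Fos and Jun were highest.

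Promoters of members are shown because the members were low together and because the rule did not use sequence. RefSeq promoter windows of GRCm38.p6 (250 bases before to 50 after a start site) matched 32 of the 37 genes, with 50 windows, and were set beside all 32851 windows of 27025 genes. Clcf1, Slc14a1, Treml2 and Tnik were among those with no window. Member windows held more G and C, with a median of 59.3% against 52.7% and a ratio of observed to expected CpG of 0.603 against 0.384. The letters CACACCC of Krüppel-like factors (either strand) were found in 7 of 32 member genes (21.9%) against 9.05% of all genes, and in 16% of the 50 member windows against 7.95% of all windows. These are Icosl, Rara, Satb1, Tmem108, Tsc22d1, Tsc22d3 and Zfp318, of which 5 are regulators of transcription. The match of Rara lies in overlapping windows and is counted more than once in the share of windows. Windows are given for 4 of them, a ligand and 3 regulators named above, 5′ to 3′ on the strand of the gene, with the matched letters in capitals (GGGTGTG where the match is on the other strand).
Icosl, chr10:78069118-78069417, plus strand: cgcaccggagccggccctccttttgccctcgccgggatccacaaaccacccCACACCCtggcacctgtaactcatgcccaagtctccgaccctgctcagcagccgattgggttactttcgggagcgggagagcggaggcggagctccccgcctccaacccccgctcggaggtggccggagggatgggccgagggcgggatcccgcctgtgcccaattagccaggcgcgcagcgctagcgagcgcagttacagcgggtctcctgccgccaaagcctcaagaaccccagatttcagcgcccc
Satb1, chr17:51833241-51833540, minus strand: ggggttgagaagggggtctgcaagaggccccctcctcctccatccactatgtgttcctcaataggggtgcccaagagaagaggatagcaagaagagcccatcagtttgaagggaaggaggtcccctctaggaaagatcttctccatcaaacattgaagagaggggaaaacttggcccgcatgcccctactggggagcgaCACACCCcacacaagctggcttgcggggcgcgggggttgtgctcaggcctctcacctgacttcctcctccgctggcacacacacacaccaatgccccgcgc
Tsc22d1, chr14:76415571-76415870, plus strand: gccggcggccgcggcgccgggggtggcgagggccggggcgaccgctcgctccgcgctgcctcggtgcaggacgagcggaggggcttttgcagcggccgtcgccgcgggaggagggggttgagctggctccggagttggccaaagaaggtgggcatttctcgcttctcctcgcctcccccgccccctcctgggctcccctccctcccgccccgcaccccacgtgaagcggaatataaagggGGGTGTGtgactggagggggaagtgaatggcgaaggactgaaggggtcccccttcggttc
Tsc22d3, chrX:140548522-140548821, minus strand: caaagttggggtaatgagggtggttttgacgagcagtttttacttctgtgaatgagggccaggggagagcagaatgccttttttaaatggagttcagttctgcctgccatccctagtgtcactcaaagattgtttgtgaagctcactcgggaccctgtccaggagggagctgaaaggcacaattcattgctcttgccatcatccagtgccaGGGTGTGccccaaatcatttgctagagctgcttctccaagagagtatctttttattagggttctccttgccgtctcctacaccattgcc
The match begins 199 bases before the start site in Icosl, 51 in Satb1, 10 in Tsc22d1 and 39 in Tsc22d3, so that its place is not fixed. Of the factors that can bind such letters, Klf2 had the levels given above, Klf3 averaged 44.7, 45.5 and 2.50 TPM over naïve B cells, activated B cells and PCs. Klf6 averaged 44.4, 28.5 and 17 TPM, in the order of the members, and Klf13 averaged 32.5, 40.03 and 12.7 TPM.

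The letters TATAAA (either strand) were found in 8 of 32 member genes (25%) against 15.7% of all genes, but in 16% of member windows against 13.6% of all windows. Members have more windows a gene than other genes, which raises shares by gene. In 3 of them the match began 28 to 31 bases before the start site, the usual place of a TATA box, and 60 bases around it are given for the cholesterol exporter Abca1, Crisp3 and Pxdc1 with the match in capitals.
Abca1, chr4:53159886-53159945, minus strand: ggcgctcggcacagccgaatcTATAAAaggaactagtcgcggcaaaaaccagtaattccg
Crisp3, chr17:40242279-40242338, minus strand: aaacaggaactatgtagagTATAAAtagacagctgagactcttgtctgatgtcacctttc
Pxdc1, chr13:34652672-34652731, minus strand: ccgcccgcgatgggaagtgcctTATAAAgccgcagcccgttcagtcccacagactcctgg
Other letters searched on both strands were rare in member genes. GTAAACA (forkhead factors of the FOXO group) was found in 1 of 32 (3.12%) against 4.05% of all genes, TGANTCA (AP-1) in 0 of 32 against 8.97%, TGACGT (CRE) in 1 of 32 against 8.37%, CCGGAAG (ETS) in 1 of 32 against 9.93% and GAGGAAG (PU.1) in 1 of 32 against 15.4%. A match describes letters in a window and no binding was measured. With 32 genes, 1 gene more or less moves a share by 3.12 percentage points.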

How the data were processed

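RNA from 9 libraries (3 a group) was made into cDNA by polyA capture and sequenced. The deposited TPM values were made by the authors with kallisto pseudoalignment (mm10 in the submitters' processing notes), summed by gene symbol, in a full table and in a table without Ig genes, which was used here. The log2 values deposited by the authors come from voom, which adds 0.5 to each count and divides by the library's total. Genes at 0 TPM share 1 log2 value in a library, which gave its depth and an estimated count for each gene. Precision is limited by 3 libraries a group, and a floor of 3 counts covers counting error only. The 37 genes, gene lists, families and motifs were chosen with earlier results of these data known, families and roles after the values were seen.

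PCs were compared with activated B cells by voom and limma 3.58.1 (R 4.3.3) on TPM (an offset of 0.5 TPM) with 3 group means, over genes at 1 TPM or more in at least 3 libraries, with Benjamini-Hochberg adjustment. A gene was called at an adjusted p under 0.05 and over 2-fold. The method was tested on simulated data. Genes named were the members, their families, and those nearest to the threshold on either side. A few genes are not reported here. Alternatives were other folds, offsets, minimum levels, scalings, the table with Ig genes, unweighted log2 values, a replicate block and leaving out each library. Symbols were matched to RefSeq (GRCm38.p6), 34 directly and 3 by an older symbol. Tables were handled in Python 3.11.15 and pandas 2.3.3, with figures in matplotlib 3.10.9.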

Additional observations from a re-analysis of the deposited data

How the results depend on the processing

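The number of genes that met the rule was 91 at a 3-fold limit, 13 at 6-fold, 13 with an offset of 5 TPM, 111 in the table that keeps Ig genes (36 of the 37 among them) and 22 with median-of-ratios scaling, and 35 to 42 when 1 library was left out. PCs and activated B cells differed in 4150 genes, in 7775 in the table that keeps Ig genes, in 2640 among genes with a mean of at least 10 TPM, and in 3968 to 4391 when 1 library was left out. Members lower in PCs numbered 30 of 37 in the table that keeps Ig genes (59.7% of all genes tested), 19 with log2(TPM + 1) (20.6%), 17 of the 23 with a mean of at least 10 TPM (26.0%), 20 to 24 under the other settings (9.18 to 23.5%) and 21 to 23 when 1 library was left out (21.1 to 23.9%), and members higher 0 in each case. The share of 9.18% was that without a filter, and with quantile normalization it was 14.3%. The summed share of the members, 0.378%, 0.0555% and 0.0149% in naïve B cells, activated B cells and PCs, was 0.356%, 0.0519% and 0.00606% in the table that keeps Ig genes, and 0.214% and 0.0376% in naïve and activated B cells without Faim3. Some of these settings tested fewer genes, and fewer were summed without Faim3. In the table that keeps Ig genes the same 37 genes were summed, but the total of all TPM includes Ig transcripts. Ighm alone averaged 4482 TPM in naïve B cells, 5239 in activated B cells and 47717 in PCs there. The cause of these shifts was not tested beyond this. Of the 22 genes lower in PCs, 18 passed under all alternatives in which they were tested. The exceptions were Pydc3, Rara, Fam101b and Lfng, each below a threshold under at least 1. Of the 15 that did not pass, 5 passed under none. Replicate numbers did not pair libraries (correlation of same-numbered libraries -0.075 to 0.068). With a replicate block, 24 members were lower and 4238 genes were called, and Crisp3 (-1.06) and Slfn5 (-1.36) passed. With an offset of 0.1 in place of 0.5 TPM and no weights, Crisp3 (-1.82) passed, so that its call moves with the scale. Zfp318 was at -1.74 there, but nothing is read from its calls, because only its naïve libraries met the filter. Depth limits Pcp4 and Lfng in PCs, at 0 to 2.96 estimated reads.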
